A study of Capra hircus with 7 samples.

Results

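Interferon-stimulated genes are transcripts that cells raise after interferon or viral RNA. A list of 39 of them was followed in RNA-seq data from goat (Capra hircus) mammary gland cells in which a circular RNA, cirRNA28250, had been altered. The genes were chosen by symbol, with earlier results of these data known. Of the 39, 37 were found among the 17374 genes of the table. USP18 and PLSCR1, which had no matching entry, were not analysed here. Of the 37, 35 had at least 1 FPKM (sequenced fragments normalised for transcript length and library size) in at least 2 of the 7 libraries and were tested with 12180 genes in all.

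The cells were from the mammary gland of the Lanshan dairy goat and had been kept in 3D culture. The groups were cKDmix, in which a virus was used to inhibit cirRNA28250, with 2 libraries; c3NC, taken as its control, with 2 libraries; cRNA28250, in which a virus carried the circular RNA, with 2 libraries; and c5NC, taken as the control of the overexpression, with 1 library. The labels do not say whether the control cultures received a virus, how long the cells were exposed, or whether each library stands for its own culture or animal. The p-values therefore rest on library-to-library spread alone, and part or all of that may be technical. The number of sequenced fragments is not given in the sources used here, and the FPKM values do not show it. The cKDmix libraries listed 11701 and 11853 genes at 1 FPKM or above, against 10896 and 10941 in c3NC, and the cRNA28250 libraries listed 11479 and 11870, against 11045 in c5NC. All 10 fibroblast markers examined were at 1 FPKM or above in every library, whereas KRT8, KRT18 and EPCAM, which define luminal mammary epithelium, were at or below 0.28 FPKM throughout. Of the 9 epithelial markers in the table, CLDN4 was at 4.45 to 15.84 FPKM in every library, and KRT19 and KRT14 passed 1 FPKM in c5NC alone, at 5.53 and 4.22 FPKM. The defining leukocyte marker PTPRC was at 0 and 0.02 FPKM in cKDmix and at 0 in both c3NC libraries; summed over the 14 leukocyte markers in the table, levels were 66.5 and 65.0 FPKM in cKDmix and 225 and 188 FPKM in c3NC, most of it from CD14. CD68 of that list went the other way, at 19.4 and 19.3 FPKM in cKDmix against 5.86 and 8.61 FPKM in c3NC. Fibroblast markers summed to 13753 and 13051 FPKM in cKDmix and to 21207 and 22454 FPKM in c3NC. FBLN1 of that list went the other way, at 10.4 and 11.1 FPKM in cKDmix against 5.57 and 7.8 FPKM in c3NC. The part of these marker levels in the results was not tested. In bulk RNA, fewer cells that express a gene and less of its RNA per cell cannot be told apart.

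In the textbook pathway, cytosolic RNA is recognised by the helicases RIG-I (DDX58) and MDA5 (IFIH1), which signal through MAVS to induce interferon. Type I interferon then binds the receptor IFNAR1 and IFNAR2 and activates JAK1 and TYK2, and a complex that holds STAT2 and IRF9 enters the nucleus and switches on the stimulated genes. Many of their products restrict viruses directly, others attach the ubiquitin-like protein ISG15 to targets, and the sensors and transcription factors are themselves induced, which feeds the response back on itself.

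Setting cKDmix against c3NC, called knockdown below, compares cells given a virus to inhibit cirRNA28250 with the group taken as their control. Whether c3NC received a virus is not given, so responses to the virus and to loss of the circular RNA cannot be told apart. The list was chosen with earlier results of these data known. A further list of stimulated genes, given below, was near the shares of all tested genes. Of the 35 members tested, 24 rose in cKDmix and 0 fell, a share of 68.6% against a background of 26.8% of all tested genes called higher and 7.56% called lower (limma with Benjamini-Hochberg adjustment across the whole table, threshold 0.05). At an unadjusted p under 0.05, 27 members were higher and 1, HERC6, was lower. The share of all tested genes at that cut is not given here. The median log2 fold change of the members was 0.81 on the log2(FPKM + 1) scale, which is 0.51 above the median of all tested genes (0.30). Most members were transcripts of modest abundance, and the 3862 tested genes in the interquartile range of member abundance (3.84 to 11.6 FPKM on average) had a median of 0.44, with 33.3% called higher and 3.86% lower. Both cKDmix libraries lay above both c3NC libraries for 29 members (82.9%, against 55.2% of all tested genes), and above all 5 other libraries for 21 (60.0%, against 29.4%). MX2 and RSAD2 reached 1 FPKM in the cKDmix libraries alone and so entered the test through the group in which they were high. EPSTI1 and XAF1 reached it in the cKDmix and cRNA28250 libraries alone and so entered through the altered groups.

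The size of this count depended on scaling and on single libraries. After quantile normalization, which moved the median of all genes to −0.02, 13 members were higher and 1, HERC6, lower, against 11.0% and 11.4% of all genes. Scaling by median ratios, which moved that median to −0.02 as well, left 17 higher and HERC6 lower, against 14.8% and 15.8%. For 5 members that were not called, DHX58, IRF1, TRIM25, HERC5 and LY6E, the sign of the log2 fold change differed between scalings. Against c5NC in place of c3NC, 19 members were called higher (15.4% of all genes) and 0 lower (6.44%), and 17 of the 19 were also called against c3NC. Against all 3 control libraries as 1 group, 21 were higher (22.9%) and 0 lower (5.30%). Without c3NC replicate 1 or replicate 2, 11 members were called, the same 11 in both fits; without cKDmix replicate 1 the count was 7, and without cKDmix replicate 2 only SAMD9 was called, while the median of the members stayed between 0.81 and 0.93. Each of the fits without 1 library has fewer libraries from which to estimate the spread. The shares of all tested genes called in them are not given here.

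**Figure D1:**
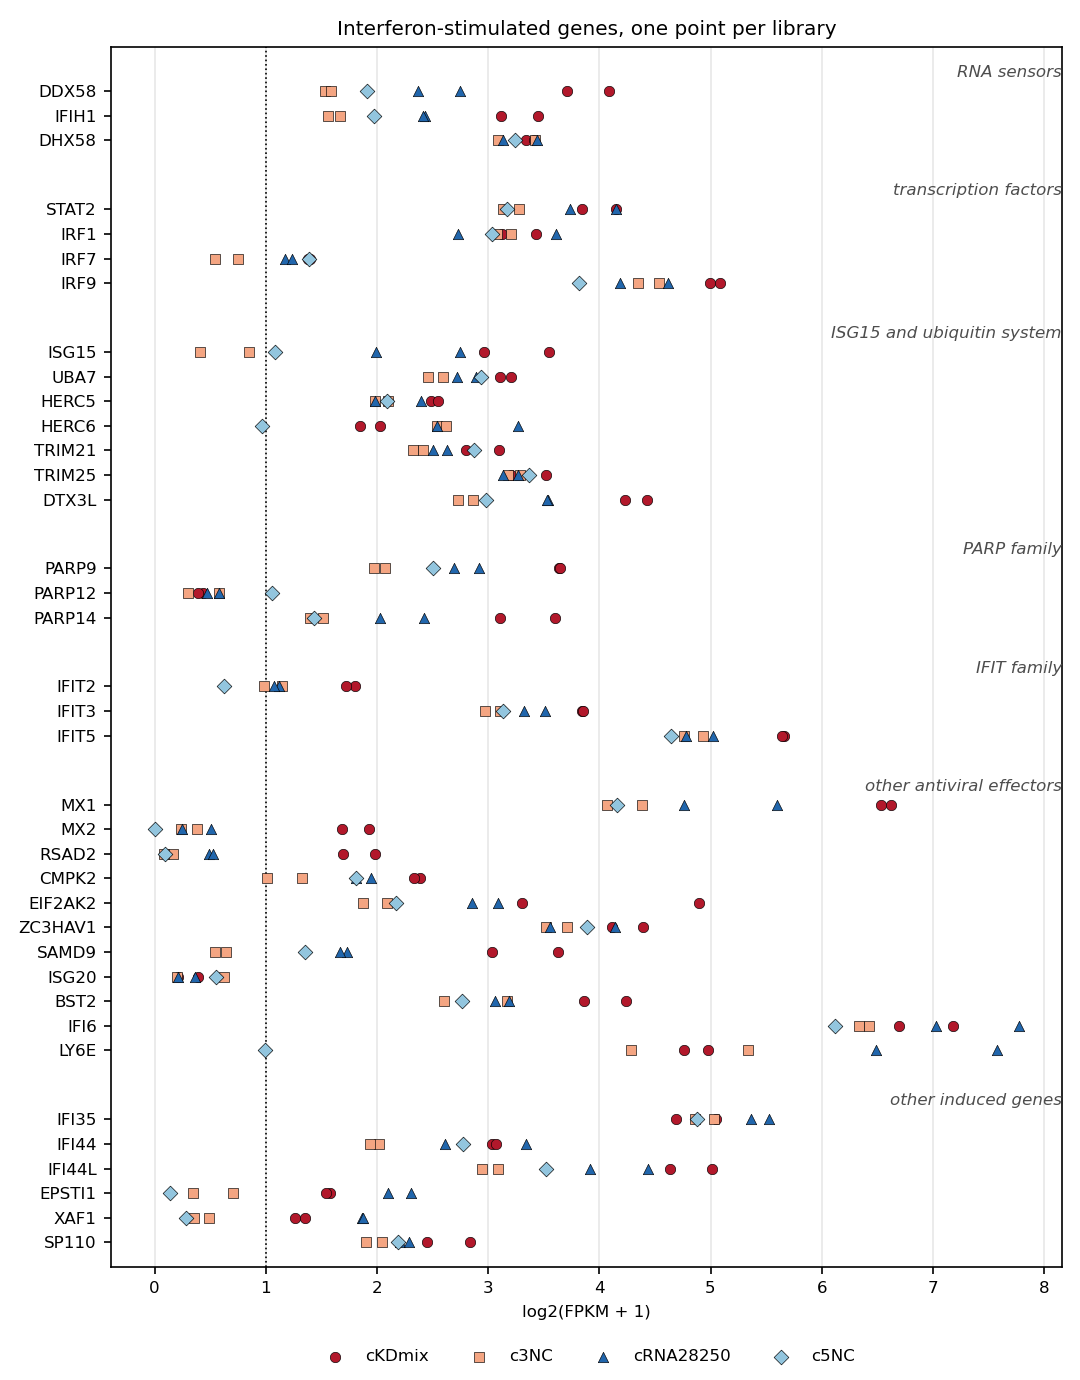
Level of each of the 37 measured members in each of the 7 libraries, as log2(FPKM + 1) on the horizontal axis, with members grouped by role and 1 point per library; the dotted line marks 1 FPKM. The cKDmix points lie to the right of all others for 21 of the 35 tested members, LY6E spans the widest range, and PARP12 and ISG20 stay at the left.

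Among the 3 RNA sensors, DDX58 and IFIH1 rose in cKDmix and DHX58 did not pass the test. DDX58 stood at 12.1 and 15.95 FPKM in cKDmix, against 1.90 and 2.0 FPKM in c3NC. It was at 5.72 and 4.17 FPKM in cRNA28250, against 2.77 FPKM in c5NC. The cKDmix libraries were the highest of the 7 and did not overlap with any other, and the log2 fold change was 2.34 ± 0.23 (SE; limma, Benjamini-Hochberg adjusted p = 0.00189). IFIH1, which recognises longer double-stranded RNA, was at 7.65 and 9.90 FPKM in cKDmix libraries, 1.94 and 2.17 FPKM in c3NC, 4.41 and 4.34 FPKM in cRNA28250 and 2.92 FPKM in c5NC. Its groups were ordered in the same way as those of DDX58, with a log2 fold change of 1.67 ± 0.20 in knockdown (adjusted p = 0.00354). DHX58 encodes LGP2, a helicase of the same family that lacks the signalling domain and tunes the other sensors. It was at 9.16 and 9.66 FPKM in cKDmix, against 9.69 and 7.53 FPKM in c3NC, and the cRNA28250 libraries (9.88 and 7.75 FPKM) enclosed the c5NC value of 8.44 FPKM. Each altered group of DHX58 overlapped with its own control, and the 95% interval of its log2 fold change in knockdown ran from −0.36 to 0.61.

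Of the 4 transcription factors, STAT2 and IRF7 rose in cKDmix and IRF1 and IRF9 were not called. STAT2, a subunit of the complex that activates stimulated genes, was at 13.4 and 16.8 FPKM in cKDmix against 8.70 and 7.78 FPKM in c3NC, with 16.8 and 12.4 FPKM in cRNA28250 and 8.0 FPKM in c5NC. Both altered groups thus lay above their controls, by 0.79 ± 0.22 in knockdown (limma, adjusted p = 0.0279) and by 0.78 ± 0.27 in overexpression, where the gene was not called (adjusted p = 0.135). STAT2 overlaps IL23A in the ARS1.2 annotation, and reads of the overlap cannot be assigned with certainty. IRF9, the DNA-binding partner of STAT2, was at 33.0 and 30.9 FPKM in cKDmix, 22.2 and 19.4 FPKM in c3NC, 17.2 and 23.6 FPKM in cRNA28250 and 13.1 FPKM in c5NC. The cKDmix libraries were the highest, but the log2 fold change of 0.60 ± 0.21 missed the threshold (adjusted p = 0.0562). IRF9 was called against c5NC, against all 3 control libraries as 1 group, with only the libraries of the groups compared and without either cRNA28250 library. IRF7, the factor that amplifies interferon production, was low everywhere, at 1.61 and 1.63 FPKM in cKDmix and 0.46 and 0.68 FPKM in c3NC (log2 fold change 0.74 ± 0.19, adjusted p = 0.0240). In c5NC, however, IRF7 stood at 1.62 FPKM, level with cKDmix, and against that library its log2 fold change was −1.1e-05. IRF1, which responds to interferon gamma and inflammatory signals, was at 9.78 and 7.71 FPKM in cKDmix and 8.21 and 7.44 FPKM in c3NC, with overlapping groups. The 4 factors had a median log2 fold change of 0.67 in knockdown and the sensors one of 1.67, which are descriptions of 4 and 3 genes.

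The STAT2 and IRF7 calls were lost with quantile normalization, with median ratio scaling and against c5NC, and also on leaving out any 1 of the 4 cKDmix and c3NC libraries. The calls of UBA7 and SP110, 2 other members with small rises, were lost in all of these fits as well. Without a filter, UBA7, SP110 and STAT2 lost their calls. Against all 3 control libraries as 1 group, UBA7, SP110 and IRF7 did. DDX58 and IFIH1 kept their calls under all 10 alternatives other than leaving out libraries, and lost them without cKDmix replicate 2.

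The ISG15 and ubiquitin genes were split. ISG15, the ubiquitin-like modifier, was at 10.7 and 6.81 FPKM in cKDmix against 0.80 and 0.33 FPKM in c3NC. It was at 5.70 and 2.97 FPKM in cRNA28250 against 1.12 FPKM in c5NC. Its log2 fold change in knockdown, 2.63 ± 0.33, was among the largest of the members (limma, adjusted p = 0.00363). UBA7, the enzyme that activates ISG15 for transfer, rose less, to 8.23 and 7.59 FPKM in cKDmix against 4.49 and 5.05 FPKM in c3NC (0.63 ± 0.19, adjusted p = 0.0373). The human ligase that attaches ISG15 is HERC5; goat HERC5 was at 4.62 and 4.86 FPKM in cKDmix and 2.95 and 3.28 FPKM in c3NC and was not called (0.48 ± 0.21, adjusted p = 0.115). DTX3L, a ubiquitin ligase that works in a complex with PARP9, was at 17.8 and 20.6 FPKM in cKDmix and 6.27 and 5.61 FPKM in c3NC, a log2 fold change of 1.54 ± 0.18 (adjusted p = 0.00345). TRIM21, a cytosolic antibody receptor and ubiquitin ligase, was at 5.96 and 7.55 FPKM in cKDmix and 4.33 and 4.0 FPKM in c3NC (0.58 ± 0.20, adjusted p = 0.0566). TRIM25, a ubiquitin ligase that acts on RIG-I, had overlapping groups, at 8.25 and 10.5 FPKM in cKDmix and 8.03 and 8.77 FPKM in c3NC. HERC6, a ligase related to HERC5, was the one tested member with both cKDmix libraries below both c3NC libraries, at 2.59 and 3.08 FPKM against 4.80 and 5.17 FPKM (−0.64 ± 0.27, adjusted p = 0.0962). With only the libraries of the groups compared it was called lower (adjusted p = 0.0121), whereas against c5NC its direction turned, at 0.97 (adjusted p = 0.0674).

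PARP9 and PARP14, poly-ADP-ribose polymerase family members with a place in interferon signalling, both rose in cKDmix. PARP9 stood at 11.5 and 11.6 FPKM in cKDmix against 2.93 and 3.20 FPKM in c3NC. It was at 5.47 and 6.58 FPKM in cRNA28250 against 4.67 FPKM in c5NC. PARP14 was at 7.62 and 11.1 FPKM in cKDmix, 1.86 and 1.64 FPKM in c3NC, 4.37 and 3.07 FPKM in cRNA28250 and 1.70 FPKM in c5NC, with a log2 fold change in knockdown of 1.90 ± 0.25 (limma, adjusted p = 0.00409). PARP12, a family member that binds RNA, was not tested, because only c5NC reached 1 FPKM (1.08 FPKM); it was at 0.35 and 0.31 FPKM in cKDmix and 0.23 and 0.49 FPKM in c3NC.

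The 3 IFIT genes, whose proteins bind foreign RNA or assist those that do, all rose. With median ratio scaling none of the 3 was called, and with quantile normalization IFIT5 was. IFIT5 was the most abundant, at 49.6 and 49.1 FPKM in cKDmix and 26.1 and 29.5 FPKM in c3NC, followed by IFIT3 at 13.4 FPKM in both cKDmix libraries and 7.64 and 6.85 FPKM in c3NC. IFIT2 was at 2.49 and 2.29 FPKM in cKDmix and 1.22 and 0.98 FPKM in c3NC. Log2 fold changes were 0.81 ± 0.18 for IFIT5, 0.81 ± 0.18 for IFIT3 and 0.69 ± 0.19 for IFIT2 (limma, adjusted p = 0.0148, 0.0153 and 0.0292). In cRNA28250, IFIT5 was at 26.5 and 31.5 FPKM against 24.01 FPKM in c5NC, so that its highest overexpression library stayed well under the cKDmix level. The genes of this family are close paralogs, and reads shared between them can move single values.

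Among the other antiviral effectors, 7 of 10 tested rose in cKDmix and 0 were called lower. SAMD9, which restricts poxviruses, had the largest rise of all members: 7.18 and 11.3 FPKM in cKDmix against 0.46 and 0.56 FPKM in c3NC, a log2 fold change of 2.73 ± 0.24 (limma, adjusted p = 0.00146). It was also the only member called in every alternative and with every library left out in turn. MX1, a GTPase that traps incoming viral nucleocapsids, was the most abundant of the risers at 91.8 and 97.6 FPKM in cKDmix against 19.9 and 15.8 FPKM in c3NC, with 47.5 and 26.1 FPKM in cRNA28250 and 16.9 FPKM in c5NC (2.35 ± 0.28 in knockdown, adjusted p = 0.00350). Its paralog MX2 was at 2.21 and 2.80 FPKM in cKDmix, 0.30 and 0.18 FPKM in c3NC and 0.19 and 0.42 FPKM in cRNA28250, and was listed at 0 in c5NC. RSAD2 encodes viperin, which makes a chain-terminating nucleotide from CTP, and was at 2.23 and 2.96 FPKM in cKDmix, 0.12 and 0.06 FPKM in c3NC, 0.40 and 0.44 FPKM in cRNA28250 and 0.07 FPKM in c5NC. Absolute levels of MX2 and RSAD2 were thus low even where they were highest.

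The other risers in this class were CMPK2, a mitochondrial nucleotide kinase; BST2, the membrane tether of budding virions; and EIF2AK2, the RNA-activated kinase PKR that stops translation. EIF2AK2 was at 8.90 and 28.9 FPKM in cKDmix and 2.66 and 3.26 FPKM in c3NC, and its cKDmix libraries differed by a larger ratio than those of any other named effector (2.12 ± 0.45, limma, adjusted p = 0.0131). Its log2 fold change was 2.92 without cKDmix replicate 1 and 1.33 without replicate 2, and its call was lost without a filter. The CMPK2 call was lost with quantile normalization and against c5NC, and the BST2 call with quantile normalization. ZC3HAV1, the zinc-finger antiviral protein, was at 16.3 and 20.0 FPKM in cKDmix and 10.5 and 12.04 FPKM in c3NC without passing the test (0.64 ± 0.24, adjusted p = 0.0732). IFI6, a small membrane protein, was the most abundant member, at 144 and 103 FPKM in cKDmix and 85.1 and 79.7 FPKM in c3NC, and was not called either (0.56 ± 0.29, adjusted p = 0.165). LY6E, a lipid-anchored surface protein, was at 30.6 and 26.1 FPKM in cKDmix, inside the span of its c3NC libraries of 18.5 and 39.4 FPKM (0.06 ± 0.42), while against c5NC it was called higher, at 3.88 (adjusted p = 0.00388). ISG20, an RNA exonuclease, was untested, at 0.15 to 0.54 FPKM over the 7 libraries.

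Of the 6 remaining members, 5 rose in cKDmix. IFI44L, which in human cells dampens the response, was at 31.3 and 23.9 FPKM in cKDmix and 6.71 and 7.52 FPKM in c3NC (1.80 ± 0.24, limma, adjusted p = 0.00419). Its neighbour and paralog IFI44 was at 7.22 and 7.40 FPKM in cKDmix and 3.06 and 2.84 FPKM in c3NC. In cRNA28250 IFI44 was at 5.12 and 9.14 FPKM, and in c5NC at 5.86 FPKM. The IFI44 call was lost with quantile normalization, without a filter, against c5NC and against all 3 control libraries as 1 group. EPSTI1 and XAF1, an antagonist of the apoptosis inhibitor XIAP, were at 1.98 and 1.92 FPKM and at 1.40 and 1.55 FPKM in cKDmix, against 0.63 and 0.27 FPKM and 0.28 and 0.40 FPKM in c3NC. SP110, a nuclear body protein, was at 4.46 and 6.14 FPKM in cKDmix and 2.74 and 3.12 FPKM in c3NC (0.67 ± 0.21, adjusted p = 0.0437). IFI35, a leucine zipper protein, had overlapping groups at 32.1 and 24.8 FPKM in cKDmix and 31.7 and 28.01 FPKM in c3NC, with a 95% interval of −0.54 to 0.38 for its log2 fold change.

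**Figure D2:**
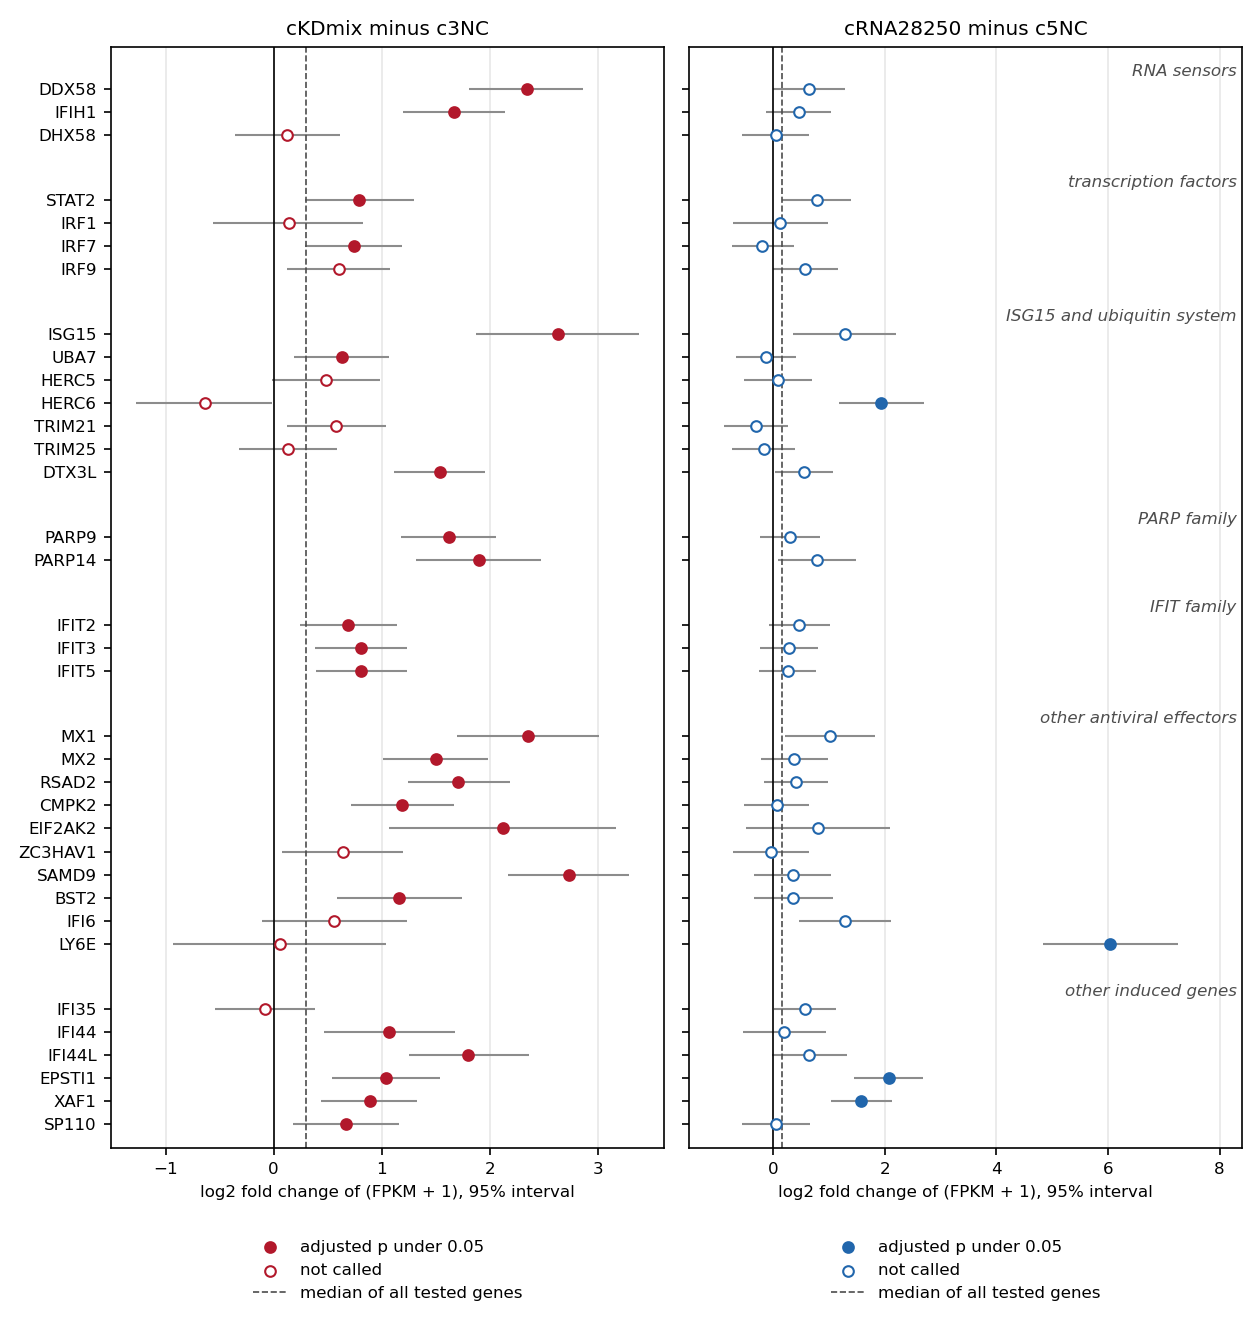
Log2 fold change of (FPKM + 1) with its 95% interval for the 35 tested members in knockdown (left, cKDmix minus c3NC) and overexpression (right, cRNA28250 minus c5NC; the horizontal scales differ). Filled points passed the threshold, the dashed line is the median of all tested genes, and 24 points are filled on the left against 4 on the right.

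Members that neighbour each other on the chromosomes of the ARS1.2 assembly often shared their direction in knockdown, though not always with the same size. The log2 fold change was positive for 33 of the 35 tested members, so most pairs of members share a direction wherever they lie. Whether neighbours shared it more often than other members was not tested. PARP9, DTX3L and PARP14 form a run with log2 fold changes of 1.62, 1.54 and 1.90; the flanking gene KPNA1, a nuclear import receptor, was also called (1.06, limma, adjusted p = 0.0108), and HSPBAP1 on the other side was not (0.29, adjusted p = 0.313). PARP9 and DTX3L overlap in that annotation, and it is not given here whether counting used strand, so reads of the overlap cannot be assigned to one of them with certainty. RSAD2 and CMPK2 lie side by side and had log2 fold changes of 1.71 and 1.19, while their neighbour RNF144A had −0.36 (adjusted p = 0.224). In the IFIT run, the unnamed locus LOC102168687 between IFIT5 and IFIT3 was at 83.7 and 103.8 FPKM in cKDmix, 7.81 and 5.38 FPKM in c3NC, 17.5 and 19.5 FPKM in cRNA28250 and 3.91 FPKM in c5NC. Its log2 fold change of 3.65 in knockdown was larger than that of any member (adjusted p = 0.000331), and this locus was picked out after its values were seen. LIPA, the lysosomal lipase gene at the end of that run, had 1.10 (adjusted p = 0.00786). HERC5 and HERC6 were the neighbouring pair whose log2 fold changes had opposite signs, 0.48 and −0.64, neither of them called; with quantile normalization both were negative, HERC5 at −0.02.

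**Figure D3:**
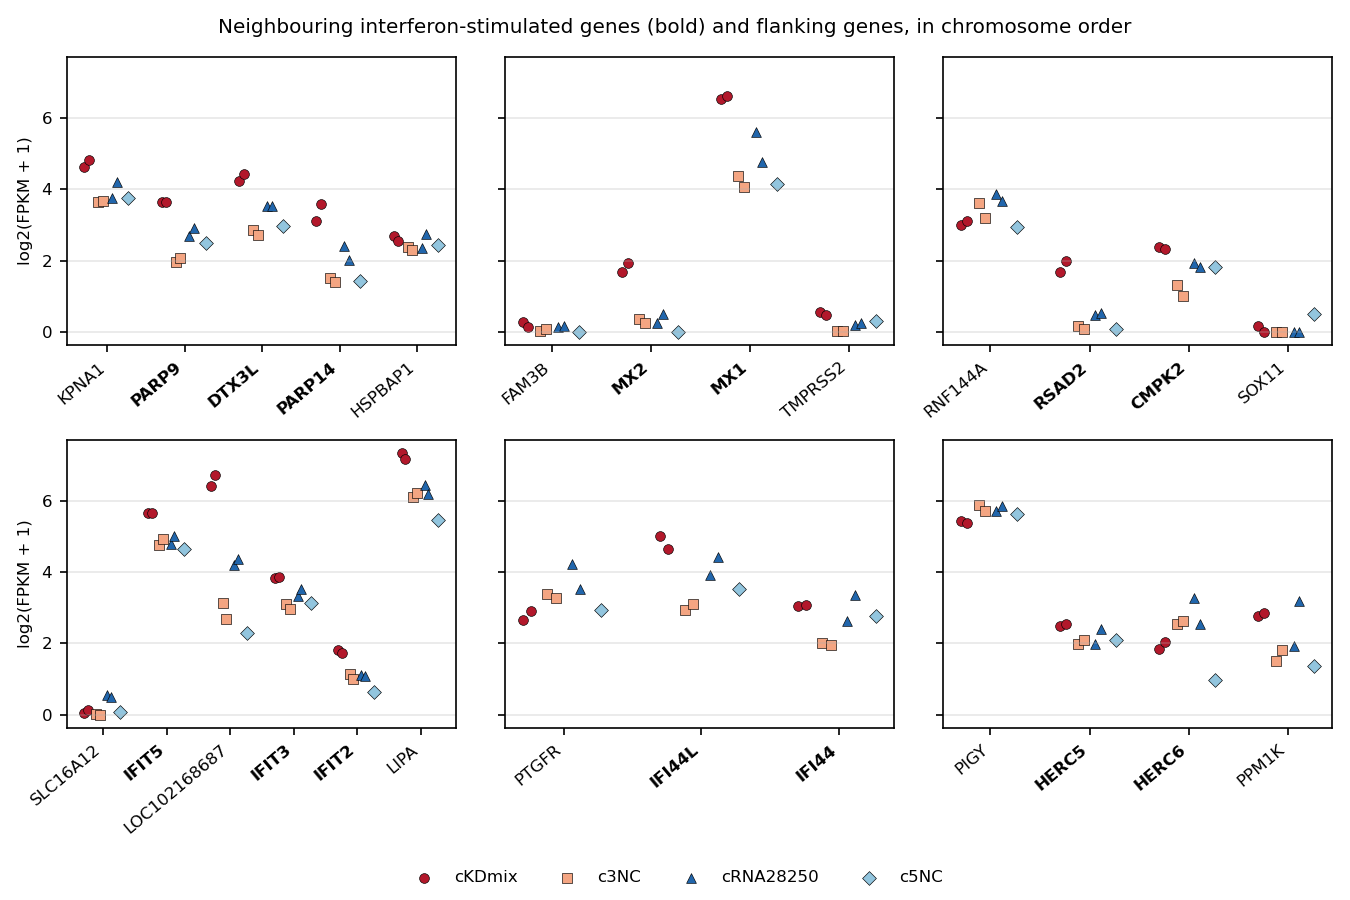
Levels as log2(FPKM + 1) of the 6 runs of neighbouring members (bold) and the measured protein-coding genes next to them, 1 point per library, with genes in chromosome order but not to scale. In the runs of PARP9, MX2, RSAD2, IFIT5 and IFI44L both cKDmix points of each member lie above both c3NC points, while HERC6 shows the opposite order.

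Upstream of the stimulated genes, the measured parts of the pathway changed unevenly in knockdown. The shares to read the following counts against are 26.8% of all tested genes called higher and 7.56% called lower. Of 8 interferon genes listed, 1 was found in the table under its symbol: IFNE, an epithelial type I interferon, was at 0.12 FPKM in both cKDmix libraries and listed at 0 in the other 5. Among 5 receptor genes tested 1 rose, IFNAR1, at 32.0 and 30.2 FPKM in cKDmix against 14.8 and 11.1 FPKM in c3NC (1.21 ± 0.19, limma, adjusted p = 0.00651). JAK2, a kinase of cytokine receptors, rose as well (1.54 ± 0.40, adjusted p = 0.0236). Of 16 genes of nucleic acid sensing, 8 rose and 1 fell. The one that fell was TICAM1 (−0.71 ± 0.21, limma, adjusted p = 0.0322), which was named after its values were seen. The risers included TLR3, the endosomal receptor for double-stranded RNA, at 1.54 ± 0.22, and TLR4, the receptor for bacterial lipopolysaccharide, at 1.14 ± 0.20 (adjusted p = 0.00490 and 0.00772). Of 13 negative regulators tested, SOCS3, an inhibitor of JAK signalling, fell by 1.27 ± 0.22 (adjusted p = 0.00801) and the phosphatase gene PTPN11 rose by 1.44 ± 0.18 (adjusted p = 0.00367).

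A list of 23 further stimulated genes that were tested held 7 called higher and 2 called lower in cKDmix, near the shares of 26.8% and 7.56% over all tested genes. Their median log2 fold change was 0.53, and that of all tested genes was 0.30. PNPT1, a mitochondrial RNA-degrading enzyme, rose to 29.5 and 28.2 FPKM in cKDmix against 6.14 and 4.94 FPKM in c3NC (2.19 ± 0.29, limma, adjusted p = 0.00418). SAMHD1, which depletes nucleotides, and TDRD7 rose by 1.15 ± 0.19 and 1.16 ± 0.22 (adjusted p = 0.00709 and 0.00951). The 2 that fell were B2M, the light chain of MHC class I, at 748 and 620 FPKM in cKDmix against 1466 and 1395 FPKM in c3NC, and LAP3, an aminopeptidase, at 38.7 and 35.1 FPKM against 77.9 and 61.5 FPKM (adjusted p = 0.0268 and 0.0146); both were named after their values were seen.

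In overexpression 1 of the 16 sensing genes rose, 1 of the 13 negative regulators fell, and of the 23 further stimulated genes 2 rose and 1 fell, where 5.07% of all tested genes were called higher and 2.55% lower. TLR3 rose, at 5.22 and 5.44 FPKM in cRNA28250 against 1.63 FPKM in c5NC (1.27 ± 0.27, limma, adjusted p = 0.0320), as it had in knockdown. SAMHD1, by contrast, fell by 2.31 ± 0.24 (adjusted p = 0.00233), at 12.03 and 10.3 FPKM in cRNA28250 against 58.8 FPKM in c5NC. That control library stood apart for SAMHD1, since both c3NC libraries were at 5.24 and 5.04 FPKM.

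Setting cRNA28250 against c5NC, called overexpression, has 1 control library that is assumed to vary like the others. Here too, responses to the virus and to the circular RNA cannot be told apart. The groups with 2 libraries did not vary alike. Over all tested genes, the SD of the log2 difference between replicates was 0.585 in cRNA28250, 0.306 in cKDmix and 0.3 in c3NC. Over the members it was 0.447, 0.384 and 0.274. All comparisons share 1 estimate of spread per gene, so the knockdown p-values also depend on the cRNA28250 libraries. Of the 35 members, 4 rose (11.4%, against 5.07% of all tested genes called higher) and 0 fell (against 2.55% called lower; limma, adjusted p under 0.05). At an unadjusted p under 0.05 the counts were 11 higher and 0 lower, again without a share of all tested genes to read them against. The median log2 fold change of the members was 0.41, against 0.16 for all tested genes. Both cRNA28250 libraries exceeded the c5NC library for 26 members (74.3%, against 46.1% of all tested genes). Of the 24 members called higher in cKDmix, 22 had a positive log2 fold change in cRNA28250 (91.7%, against 76.8% of all genes called higher in cKDmix), and EPSTI1 and XAF1 were called in both. These 2 genes entered the test through the cKDmix and cRNA28250 libraries, the only ones in which they reached 1 FPKM.

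EPSTI1 was at 3.28 and 3.95 FPKM in cRNA28250 and 0.10 FPKM in c5NC, a log2 fold change of 2.07 ± 0.26 (limma, adjusted p = 0.00492). XAF1 was at 2.64 and 2.67 FPKM in cRNA28250 and 0.22 FPKM in c5NC (1.58 ± 0.23, adjusted p = 0.00895). For both genes the cRNA28250 libraries were the highest of the 7, above cKDmix, and both remained called when c3NC replaced c5NC, at 1.68 and 1.45; XAF1 lost its call, and so did HERC6, with only the libraries of the groups compared (adjusted p = 0.120 and 0.0890). With that control 6 members were called higher (against 3.55% of all genes), and with all 3 control libraries as 1 group 2 were (against 1.43%). Quantile normalization and median ratio scaling each left 4 called (against 3.07% and 4.21%). LY6E stood at 89.0 and 189.8 FPKM in cRNA28250 and at 0.99 FPKM in c5NC, a log2 fold change of 6.04 ± 0.52 (adjusted p = 0.00133), the largest of any member in any comparison. Much of that distance is set by c5NC, since LY6E was at 18.5 and 39.4 FPKM in c3NC. Against c3NC the log2 fold change of LY6E was 2.22 (limma, adjusted p = 0.0311). Against all 3 control libraries as 1 group it was 3.5 and was not called (adjusted p = 0.168). HERC6 was at 8.65 and 4.80 FPKM in cRNA28250 and 0.95 FPKM in c5NC (1.94 ± 0.33, adjusted p = 0.0139), and against c3NC it was not called, at 0.32. Without cRNA28250 replicate 1 the median log2 fold change of the members was 0.46, and without replicate 2 it was 0.38.

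IFI6 and IFI35 were also highest in cRNA28250 or close to it without being called. IFI6 was at 129 and 218 FPKM in cRNA28250 and 68.4 FPKM in c5NC (1.28 ± 0.35, limma, adjusted p = 0.0730), and IFI35 at 40.1 and 45.1 FPKM in cRNA28250 and 28.3 FPKM in c5NC (0.57 ± 0.24, adjusted p = 0.211). For 23 of the 35 members the cRNA28250 mean lay above both control means and below the cKDmix mean (65.7%, against 31.0% of all tested genes). DDX58, IFIH1, MX1, PARP14 and RSAD2 were among them. This order requires cKDmix to have the highest mean, so the count is not separate from the rise in knockdown.

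**Figure D4:**
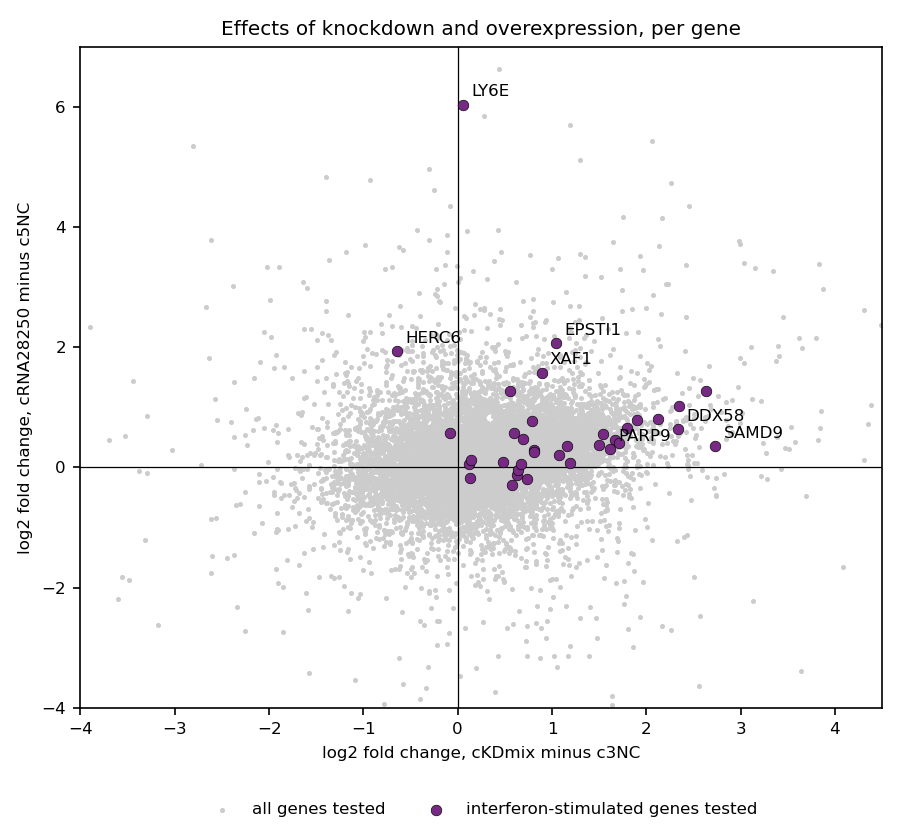
Log2 fold change in overexpression (vertical, cRNA28250 minus c5NC) against that in knockdown (horizontal, cKDmix minus c3NC) for all tested genes (grey; 17 lie outside the axes) and the 35 members (purple). Named are the members called in overexpression or in the difference between the effects: most members lie right of 0 and near it vertically, LY6E lies far up, and HERC6 lies upper left.

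The difference between the effects, knockdown minus overexpression, was called for 5 members. It was positive for DDX58 (1.69 ± 0.36), PARP9 (1.32 ± 0.30) and SAMD9 (2.38 ± 0.38), which were raised more in knockdown (limma, adjusted p = 0.0315, 0.0399 and 0.0131; 8.57% of members, against 4.01% of all tested genes). It was negative for LY6E (−5.98 ± 0.67) and HERC6 (−2.58 ± 0.42), with adjusted p = 0.00334 and 0.0137 (5.71% of members, against 3.69%). For the other 30, among them RSAD2 (1.31, adjusted p = 0.0503) and IFIH1 (1.21, adjusted p = 0.0620), the difference did not pass. The controls themselves also differed in some of these genes: LY6E and HERC6 were higher in c3NC than in c5NC by 3.82 ± 0.52 and 1.62 ± 0.33 (adjusted p = 0.00681 and 0.0323), and they were the 2 members called in that comparison (5.71%, against 2.73% of all tested genes called higher), with 0 called lower (against 3.07%; 4 at an unadjusted p under 0.05). SAMD9 was among those 4, at 0.46 and 0.56 FPKM in c3NC against 1.55 FPKM in c5NC (−0.76 ± 0.30, adjusted p = 0.225), and was called lower with only the control libraries in the fit. None of the 5 differences between the effects kept its call with each library but c5NC left out in turn. The median difference over the members stayed between 0.56 and 0.82 in those fits. For the 4 at an unadjusted p, the share of all tested genes is not given here.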

How the data were processed

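RNA-seq gave 7 libraries. The deposited values are FPKM, 1 per gene and library, made by the authors per the file headers and rounded to hundredths; what aligner, annotation, build, strand setting or scaling was used is not given in the sources used here. Identifiers were matched to symbols with a RefSeq table of assembly ARS1.2 (17007 matched, 367 did not), used for names and for which genes neighbour or overlap each other. Groups came from sample titles; the pairing of controls follows the series' design text.

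Genes reaching 1 FPKM in 2 or more libraries were fitted together on log2(FPKM + 1), which understates changes of low genes, with limma 3.58.1 in R 4.3.3, 1 mean per group, 3 residual and 4.66 prior degrees of freedom (eBayes with trend), and Benjamini-Hochberg adjustment over 12180 genes at 0.05. The fit was checked on simulated data. The members, lists and tests were chosen with earlier results of these data known. Members named in full are all sensors and transcription factors, up to 4 per other role by smallest p in knockdown, members called elsewhere, and up to 3 called genes per pathway list. Alternatives tried were 2 other scalings, other filters, a pseudocount of 0.1, no trend, fewer libraries, a replicate block, other controls and leaving out each library. Some genes of the pathway lists are not reported here. No sequences are shown, and cirRNA28250 itself was not analysed here.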

Additional observations from a re-analysis of the deposited data

Results flagged for a closer look

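For 5 members, the test of the difference between the 2 effects (knockdown minus overexpression, log2 scale) passed the threshold. DDX58 differed by 1.69, PARP9 by 1.32 and SAMD9 by 2.38, each higher in knockdown than in overexpression relative to its own control; HERC6 differed by −2.58 and LY6E by −5.98. Over 13 alternatives, the adjusted p of limma ran from 0.00422 to 0.162 for DDX58, 0.00692 to 0.176 for PARP9, 0.00197 to 0.0708 for SAMD9, 0.000188 to 0.0946 for HERC6 and 5.42e-05 to 0.056 for LY6E, and each difference kept its sign. The single c5NC library was the lowest of the 7 for LY6E and HERC6 (0.99 and 0.95 FPKM), as it was for IRF9, IFIT2, IFIT5, MX2, IFI6, EPSTI1 and XAF1, and its part in the difference was not tested.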

How the results depend on the processing

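The count of 24 members called in knockdown moved beyond 1.5 times with quantile normalization (14 called, 13 higher) and in the fits without 1 library (1 to 30). The 4 calls in overexpression became 2 with only the libraries of the groups compared and 2 with all control libraries as 1 group, and 3 to 9 without 1 library. The 5 differences between the effects became 3 without a filter and 0 to 16 without 1 library. The 2 calls between the controls became 1 without a filter, 1 with quantile normalization and 1 with the replicate block, and 1 to 4 without 1 library. The cause was not tested. Some of these fits have fewer libraries or genes, and replicates differed more in cRNA28250 than in cKDmix or c3NC. For the fits without 1 library, the shares of all tested genes called are not given here. All other counts stayed within 1.5 times. Member medians kept their sign in every alternative, at 0.55 to 1.27 in knockdown and 0.18 to 0.58 in overexpression. Against c5NC, knockdown values turned to −1.1e-05 for IRF7 and to 0.97 for HERC6, and LY6E was called, at 3.88. The replicate numbers gave correlations between groups of −0.152 to 0.283, so they were not taken to pair libraries; with the replicate block, 24, 4 and 4 members were called in knockdown, overexpression and the difference, where DDX58 and PARP9 lost their calls (adjusted p = 0.0648 and 0.0676) and ISG15 gained one. Overexpression and the comparison of controls could not be fitted without c5NC. Depth is unknown, which limits what can be said of members near 0.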
